A study of Mus musculus with 12 samples.

Results

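The transcripts described here are those of β-catenin (Ctnnb1), of the 4 TCF/LEF factors (Tcf7, Tcf7l1, Tcf7l2 and Lef1) and of the destruction complex genes Axin1, Axin2, Apc and Gsk3b. They were taken by gene symbol from a table of normalized counts. All 9 were present among 21611 genes, and all 9 were among the 15452 genes tested. The data were poly(A) RNA-seq of cultured primary cortical endothelial cells (ECs) of wild-type C57BL/6J mice, and the study asked how genes of the blood-brain barrier and of the Wnt pathway change as these cells mature. There were 3 libraries of E13.5 ECs, 3 of adult ECs as controls, 2 of adult ECs given Wnt3a and 4 of adult ECs given MS-275, a class I histone deacetylase inhibitor. The adults were males, aged 2 to 3 months in the methods and 3 to 4 months in another place of the paper. Treatments lasted 48 hr. The labels give Wnt3a at 200 nM and the methods at 200 ng/ml, and MS-275 was used at 10 µM. No group carried a transgene or a deletion. All cells had been grown on collagen to the second passage, and cortices were pooled so that the ECs of 1 litter made 1 biological replicate, although no label ties a library to a litter. The labels number the MS-275 libraries as biological replicates 1 to 4, and a figure legend of the paper also gives 4 for MS-275. However, the methods give 2 replicates for MS-275, and the titles of libraries 2, 3 and 4 repeat the same running number. If there were 2, the errors and p-values printed for MS-275 with n = 4 are too small, and the calls with MS-275 1 averaged with 3 and 2 with 4 (close libraries averaged) apply. The sources used here do not name the vehicle of the control libraries.

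In canonical Wnt signaling, β-catenin is the messenger that carries the signal to the nucleus. Without a Wnt ligand, the scaffold proteins Axin and APC hold β-catenin so that casein kinase 1 and GSK3β can phosphorylate it, and it is then degraded. With a ligand the complex is recruited to the receptors, β-catenin accumulates and binds TCF/LEF factors on DNA, which otherwise hold co-repressors. In brain ECs this pathway is known for driving vessel growth into the neural tube and the first barrier properties. Much of the regulation of β-catenin acts on the protein, which these data did not measure. Axin2, Lef1 and Tcf7 are themselves common transcriptional targets of the pathway.

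The libraries held 20804279 to 33149580 reads on genes. The label of the E13.5 libraries did not match EC markers: the summed normalized count of 12 such markers was 1889 to 2629 at E13.5, 250051 to 333062 in the adult controls, 194663 to 246249 with Wnt3a and 20882 to 36963 with MS-275. Markers of other cell types were high at E13.5, with 9 of 10 neural progenitor markers at a mean of at least 100 against 3 of 10 in the adult controls, where 6 (Sox2, Fabp7, Hes5, Emx2, Sox1 and Slc1a3) had no read. The sum of these 10 did not separate the groups (126340 to 140603 at E13.5 and 117092 to 158612 in the adult controls). Summed microglia and macrophage markers were lower at E13.5 (660 to 1651 against 7572 to 15049), and summed pericyte and smooth muscle markers were higher (30190 to 49837 against 86.7 to 102). The microglia and macrophage sum did not follow most of its markers. Of 4 tested, limma called 1 higher and 3 lower in the adult controls than at E13.5. Neuron markers summed to 8429 to 11577 at E13.5, 3.47 to 4.07 in the adult controls and 667 to 736 with MS-275. In bulk samples fewer cells of a type and less RNA per cell cannot be told apart, and the part of these marker differences in the results below was not tested. Adult libraries also fell into a pair of sets along the first component of the variation within groups, which held 45.9% of it. Set A comprised adult control 1 and 2, Wnt3a 1 and MS-275 1 and 3. Set B comprised adult control 3, Wnt3a 2 and MS-275 2 and 4. The labels name no batch for these sets, which were found in the data. Deviations were taken from the mean of each group, so a place in both sets for every adult group is built in. Adult control 1 and 2, E13.5 2 and 3, and MS-275 2 and 4 were closest to each other, with chi-square values per gene of 10.3, 4.91 and 6.65 against 79.7 to 266 for the other pairs of their groups except MS-275 1 and 3 (27.5). These close libraries still differed by more than sampling noise and were kept apart, which does not show that they were independent. If they were not, the errors and p-values printed for E13.5 and the adult controls are also too small. The calls with close libraries averaged then apply there too.

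The promoters of Lef1 and Axin2 are shown because these were the members closest to 0 in the adult control and both rose with MS-275. The sequences are the 250 bases before an annotated start, from RefSeq on GRCm38.p6, which has the coordinates of mm10, the build of the counts. Windows were found for 7 of the 9 members, 13 windows in all. They were searched on both strands for a TCF/LEF consensus spelled as CTTTGAA or CTTTGAT or CTTTGTA or CTTTGTT, words that cannot begin at the same base. None of the windows printed overlapped an exon of its gene in GENCODE M21, and capitals mark a match.
Axin2, chr11:108920099-108920348, + strand: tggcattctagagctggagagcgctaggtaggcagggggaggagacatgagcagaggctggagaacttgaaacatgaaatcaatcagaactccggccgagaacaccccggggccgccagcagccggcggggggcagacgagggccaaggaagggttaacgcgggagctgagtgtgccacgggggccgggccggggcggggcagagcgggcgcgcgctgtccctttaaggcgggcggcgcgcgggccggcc
Lef1, first start, chr3:131110047-131110296, + strand: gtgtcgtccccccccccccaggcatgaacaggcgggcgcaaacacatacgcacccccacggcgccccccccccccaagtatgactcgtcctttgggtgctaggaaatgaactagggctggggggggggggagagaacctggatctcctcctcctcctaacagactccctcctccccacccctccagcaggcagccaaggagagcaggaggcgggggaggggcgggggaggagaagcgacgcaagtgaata
Lef1, internal start, chr3:131156044-131156293, + strand: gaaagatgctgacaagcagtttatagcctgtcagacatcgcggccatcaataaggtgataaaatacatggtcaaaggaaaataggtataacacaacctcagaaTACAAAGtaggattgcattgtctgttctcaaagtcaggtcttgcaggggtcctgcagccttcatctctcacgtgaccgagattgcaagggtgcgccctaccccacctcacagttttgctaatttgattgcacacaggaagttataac

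The Axin2 window and the first Lef1 window held no match. The internal Lef1 window held TACAAAG, the reverse complement of CTTTGTA, with its first base 147 bases before the start. The only other match among the 13 member windows was CTTTGTT, 14 bases before an internal start of Tcf7l2. A match was found in 14.8% of 32851 windows of the same length, and in 2 of 13 member windows. The Axin2 window was 69.2% G and C with 24 CpG dinucleotides, and the first Lef1 window 66.4% with 11, where the medians over all windows were 52.4% and 6. These matches describe letters in these windows and no binding was measured.

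The 9 genes did not move as a block between E13.5 and adulthood. The transcript of β-catenin was higher in adult control ECs, whereas Tcf7, Lef1 and Axin2 were almost lost, Apc and Tcf7l1 were lower, and Tcf7l2, Axin1 and Gsk3b did not pass the test. Thus 6 of 9 members were called, 1 higher and 5 lower, and the same number had libraries that did not overlap. Over all genes tested, 52.3% were called (19.5% higher and 32.8% lower) and 61.9% did not overlap. The median log2 difference was -1.41 over the members and -0.20 over all genes. With quantile normalization the latter was 0.066 and 53.1% of calls were higher, against 37.3% with the deposited scaling. Calls rest on limma with Benjamini-Hochberg adjusted p-values over the 15452 genes, at a threshold of 0.05, and differences are of log2(normalized count + 1), which understates the change of genes near 0.

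**Figure D1:**
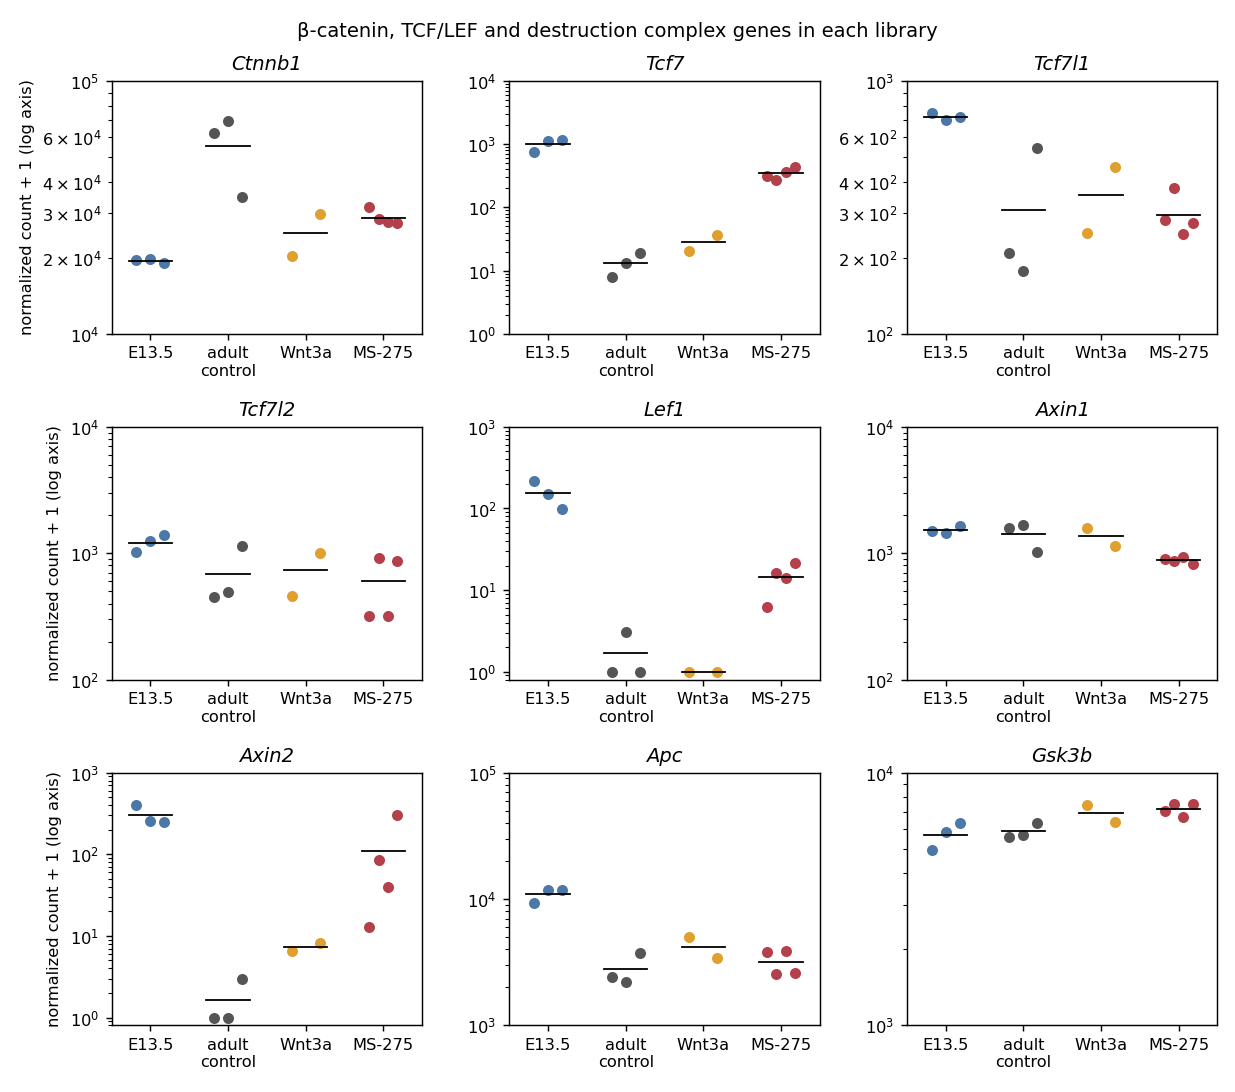
Normalized count + 1 of each of the 9 genes in each library, on a log axis, by group, with points in replicate order and lines at group means. Tcf7, Lef1 and Axin2 are near the floor in the adult control and Wnt3a libraries and higher at E13.5 and with MS-275, whereas Gsk3b stays between 4924 and 7513 in all 12 libraries.

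Ctnnb1 encodes β-catenin, which also links cadherins to actin at adherens junctions (chr9:120929216-120960507, + strand, mm10). Its normalized counts were 19553, 19842 and 19014 in the 3 E13.5 libraries and 62278, 69209 and 34702 in the adult controls. E13.5 libraries lay within a narrow range, every adult control library lay above them, and adult control 3 was the lowest of them. The difference was 1.45 ± 0.24 (log2, SE) with an adjusted p of 3.39e-04, and Ctnnb1 remained called in all 18 alternatives (1.18 to 1.75). Ctnnb1 shares 759 of its 5192 exon bases with Ulk4 on the opposite strand. Whether reads were counted by strand is not stated, so reads from these bases cannot be told apart. The same holds for noncoding antisense genes over 1208 exon bases of Lef1 (Gm43352), 209 of Axin2 (Gm11670) and 179 of Tcf7l1 (Gm15401). Of 11567 genes compared over the 12 libraries, Ulk4 had the pattern most like Ctnnb1 (Pearson r 0.97 of log2 values), with a mean of 5405 at E13.5, 15656 in the adult controls, 7906 with Wnt3a and 9301 with MS-275. It was followed by G6pdx (0.96) and Sgsm3 (0.95).

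Tcf7 encodes TCF1, a factor best known from T cell development (chr11:52252371-52283014, - strand). Its normalized counts were 745, 1105 and 1146 at E13.5 and 6.94, 12.2 and 17.7 in the adult controls. The lowest E13.5 library was far above the highest control. The ratio of the group means was 81.2, and the fitted difference was -6.29 ± 0.37 (adjusted p 1.29e-07). Tcf7 was called in all 18 alternatives.

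Lef1, a close relative of Tcf7 that mostly acts as an activator (chr3:131110471-131224356, + strand), was the least abundant TCF/LEF gene. Its normalized counts were 215, 147 and 98.3 at E13.5, and 0, 2.03 and 0 in the adult controls. These stand for 544 reads at E13.5 and 2 reads in all adult controls, a ratio of 248 with an exact counting interval of 68.2 to 2051 (95%, counting error only). The fitted difference was -6.67 ± 0.59 (adjusted p 3.06e-06), and its size depends on the pseudocount.

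Tcf7l1 encodes TCF3, the family member most often described as a repressor (chr6:72626378-72789254, - strand). Its normalized counts were 749, 698 and 719 at E13.5 and 207, 177 and 543 in the adult controls. The groups did not overlap, but adult control 3 lay much nearer to E13.5 than the other controls did. The difference was -1.41 ± 0.38 (adjusted p 0.00925), and it was no longer called when close libraries were averaged and counted once (-1.17, adjusted p 0.141, 1.62e-04 to 0.141 over the alternatives). Tcf7l2 encodes TCF4, the usual partner of β-catenin in adult epithelia (chr19:55741820-55933654, + strand). There were normalized counts of 1013, 1243 and 1386 at E13.5 and 449, 488 and 1131 in the adult controls, where adult control 3 reached the E13.5 range. The difference was -0.94 ± 0.51 (adjusted p 0.147). Without adult control 3 it was -1.36 and called (adjusted p 0.0444, 0.0444 to 0.491 over the alternatives).

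Among the destruction complex genes, Axin2 showed the pattern of Tcf7 and Lef1. Axin2 is the inducible scaffold that is switched on by the pathway and limits it (chr11:108920349-108950783, + strand). Its normalized counts were 404, 253 and 249 at E13.5 and 0, 0 and 1.97 in the adult controls, or 1061 reads against 2. The ratio was 483 with an exact counting interval of 133 to 3994, and the fitted difference was -7.68 ± 0.93 (adjusted p 3.52e-05). Axin1, the constitutive scaffold (chr17:26138688-26195811, + strand), had normalized counts of 1511, 1445 and 1629 at E13.5 and 1574, 1682 and 1018 in the adult controls. These ranges overlapped, and the difference was -0.13, with an interval of -0.57 to 0.30 and an adjusted p of 0.599.

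Apc, on chromosome 18, encodes the large scaffold that presents β-catenin to the kinases and also binds microtubules. At E13.5 the normalized counts were 9234, 11717 and 11875, and in the adult controls 2437, 2205 and 3760. Every adult control library was below every E13.5 library, with a difference of -2.0 ± 0.25 (adjusted p 5.16e-05) that was called in all 18 alternatives. Gsk3b, the kinase (chr16:38089001-38246084, + strand), had normalized counts of 4924, 5799 and 6295 at E13.5 and 5574, 5641 and 6339 in the adult controls. The difference of 0.050 had an interval of -0.24 to 0.34 (adjusted p 0.781), and its sign turned with quantile normalization (-0.12).

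**Figure D2:**
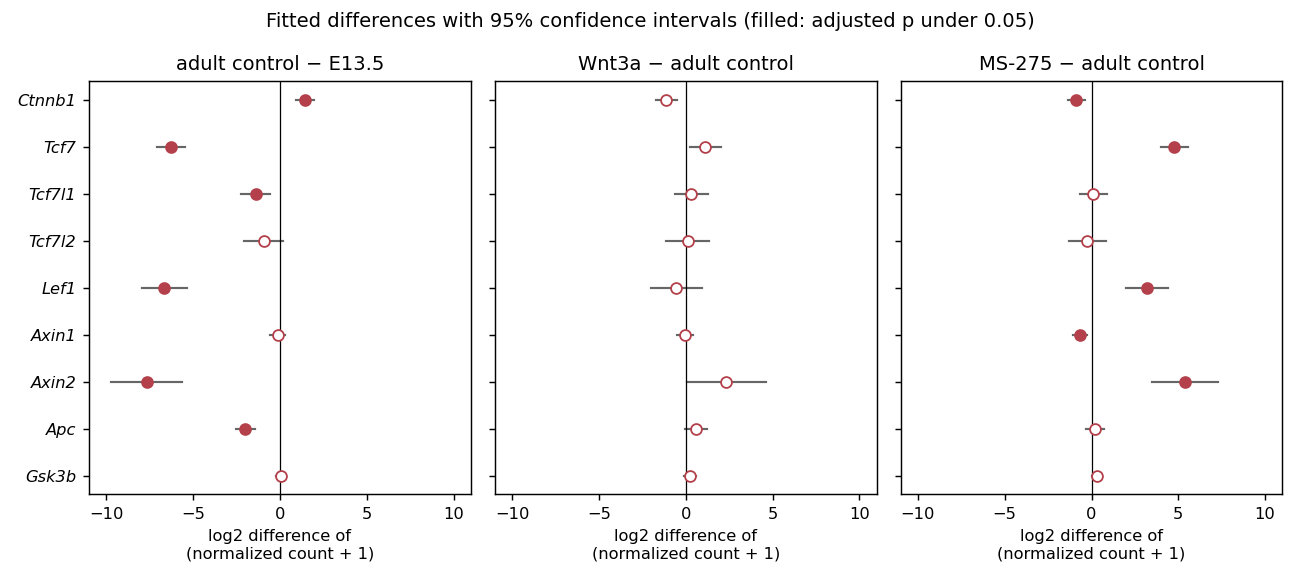
Fitted log2 differences of normalized count + 1 for each gene (points) with 95% confidence intervals (lines), for adult control less E13.5 (left), Wnt3a less adult control (middle) and MS-275 less adult control (right), which share the adult control libraries. Filled points passed an adjusted p of 0.05: 6 genes, 0 genes and 5 genes in turn.

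MS-275 raised Tcf7, Lef1 and Axin2 in adult ECs and lowered Ctnnb1 and Axin1, and left Tcf7l1, Tcf7l2, Apc and Gsk3b uncalled. Of the 9 members, 5 were called (3 higher and 2 lower) and 6 did not overlap between groups. Over all genes 53% were called (30.3% higher and 22.7% lower) and 53.2% did not overlap, so the share of members called was near that of all genes. The median log2 difference was 0.21 over the members and 0.19 over all genes. These comparisons use the same adult controls as those above, so a low control level enters both.

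Tcf7 had normalized counts of 312, 271, 364 and 442 in the 4 MS-275 libraries. All were far above the adult controls, which reached 17.7, and below the lowest E13.5 library at 745. The difference from the adult control was 4.77 ± 0.35 (adjusted p 2.54e-06), and the ratio of the means was 28.2. Lef1 had 5.12, 15.3, 13.0 and 20.2 with MS-275, all above the highest control at 2.03. The 52 reads against 2 gave a ratio of 19.9 with a counting interval of 5.24 to 169, and a fitted difference of 3.18 ± 0.55 (adjusted p 6.61e-04). Tcf7 and Lef1 are also T cell genes. Of 5 T cell markers, 4 (Cd3e, Cd3d, Cd4 and Cd8a) were at 0 in every adult control library, and each had reads in at least 1 MS-275 library, at group means of 1.48, 1.06, 0.546 and 1.60 normalized counts. The fifth, Lck, went the other way, from 89.1 ± 9.05 in the controls to 12.9 ± 9.66 with MS-275. The 5 summed to 9.73 to 35.8 with MS-275 against 79.3 to 97.2 in the controls, and the part of such cells in the rise of Tcf7 and Lef1 was not tested.

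Axin2 had normalized counts of 11.9, 83.1, 38.9 and 298 in MS-275 libraries 1 to 4. The lowest was above all controls and the highest was within the E13.5 range, a span of 25.0-fold within 1 group. The difference from the control was 5.38 ± 0.87 (adjusted p 4.05e-04), and 374 reads against 2 gave a ratio of 143 (counting interval 39.4 to 1187). Tcf7, Lef1 and Axin2 were called in all 20 alternatives, close libraries averaged included. Axin2 was lower in both set A libraries (MS-275 1 and 3) than in both set B libraries (2 and 4), and its difference from the control was 4.51 within set A and 5.74 within set B. It also varied within each close pair. MS-275 2 and 4, which were close to each other over all genes, differed 3.59-fold in Axin2. Of 2499 genes whose mean in these libraries was within 2-fold of that of Axin2, only Axin2 itself differed by as much on the log2 scale, and the median absolute log2 difference was 0.17. MS-275 1 and 3 differed 3.26-fold, and 49 of 1579 genes of like level (3.1%) differed by as much.

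Ctnnb1 had normalized counts of 31601, 28443, 27731 and 27408 with MS-275. All were below the lowest adult control at 34702 and above E13.5. The difference was -0.88 ± 0.22 (adjusted p 0.00590), a ratio of the means of 0.520. It was -1.15 within set A and -0.31 within set B, and it was not called when close libraries were averaged (-0.73, adjusted p 0.159, 1.27e-04 to 0.159 over the alternatives). Axin1 had 891, 871, 930 and 816, below every adult control, with a difference of -0.67 ± 0.18 (adjusted p 0.0104). This was not called without adult control 1 (-0.58, adjusted p 0.0506), without adult control 2 (-0.53, adjusted p 0.0533) or with close libraries averaged (-0.55, adjusted p 0.212), the lowest over the alternatives being 5.35e-04. Within sets it was -0.84 in set A and -0.27 in set B.

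The remaining 4 members gave no call. Gsk3b had normalized counts of 7071, 7505, 6668 and 7513 with MS-275, all above the adult controls by a small margin. Its difference was 0.30 (interval 0.025 to 0.57, adjusted p 0.0632), which passed in 5 of 20 alternatives (adjusted p 0.0216 to 0.405 over the 20). These were equal totals (0.34, adjusted p 0.0437), quantile normalization (0.36, adjusted p 0.0216), DESeq2 (0.30, adjusted p 0.0288), leaving out adult control 3 (0.36, adjusted p 0.0375) and the library set as a block (0.29, adjusted p 0.0381). The set block removes spread from which the sets were drawn, so its p-value is no independent test. Apc had 3802, 2547, 3846 and 2610, over the range of the controls, and its difference was 0.21 (interval -0.32 to 0.73, adjusted p 0.492). It was 0.72 within set A and -0.54 within set B. Tcf7l1 had 281, 375, 248 and 273, with a difference of 0.10 (interval -0.69 to 0.89, adjusted p 0.837), and 0.46 and -0.76 within the sets.

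Tcf7l2 split by library set within each adult group. The sets were drawn from the spread within groups of these data, so such a split is partly built in. Normalized counts of Tcf7l2 with MS-275 were 319, 920, 315 and 866 in libraries 1 to 4. The libraries of set B had 866 to 1131 in the adult control, Wnt3a and MS-275 groups, and those of set A had 315 to 488. The difference between MS-275 and the control was -0.24 (interval -1.29 to 0.81, adjusted p 0.697). A fit of the adult libraries with the set as a block, chosen after the sets were seen, gave -0.46. Its adjusted p of 0.0104 by limma (0.0104 to 1 over the alternatives) is no independent test. The block removes the same within-group spread from which the sets were drawn. Within the sets the values were -0.56 and -0.34.

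**Figure D3:**
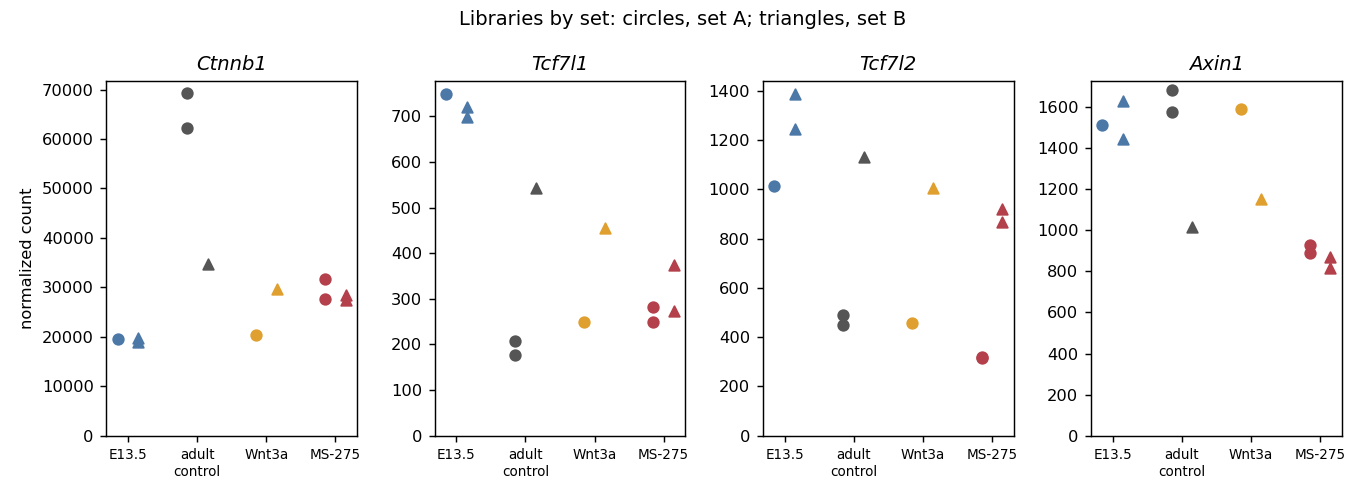
Normalized counts of Ctnnb1, Tcf7l1, Tcf7l2 and Axin1 by group on linear axes from 0, with circles for libraries of set A and triangles for those of set B. Tcf7l2 is 315 to 488 in adult libraries of set A and 866 to 1131 in those of set B, and Ctnnb1 and Axin1 of adult control 3 (the set B control) are nearer to the MS-275 libraries than the other controls are.

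Wnt3a gave no called change in any member, and 0 of 15452 genes were called by limma (0%). At an unadjusted p under 0.05 limma counted 1311 genes (8.48% of those tested). At an adjusted p under 0.05 edgeR called 0 genes and DESeq2 called 41. Leaving out adult control 3 gave 1454 called genes, and leaving out Wnt3a 2 gave 237. In the latter, as in any fit without 1 of the Wnt3a libraries, the lone Wnt3a library is assumed to vary like the other groups. Libraries did not overlap for 4 members (3 higher and 1 lower), against 15.9% of all genes (7.69% higher and 8.21% lower). With 2 Wnt3a libraries, 1 from each set, the intervals were wide.

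The members closest to a call went both ways. Ctnnb1 had normalized counts of 20374 and 29749 with Wnt3a, both below the lowest adult control at 34702. The difference was -1.11 (interval -1.69 to -0.53, unadjusted p 0.00147, adjusted p 0.525 by limma). DESeq2 called it (-1.14, adjusted p 0.0280), as did limma without adult control 3 (-1.42, adjusted p 0.00309, up to 1 over the alternatives). It was -1.69 in set A and -0.22 in set B. Tcf7 had 19.4 and 35.8, just above the highest control at 17.7, with a difference of 1.13 (interval 0.22 to 2.04, unadjusted p 0.0193, adjusted p 0.575 by limma). Axin2 had 5.56 and 7.16 against at most 1.97 in the controls. These were 10 reads against 2, a ratio of 10.1 with a counting interval of 2.16 to 94.9, and a difference of 2.35 (unadjusted p 0.0452, adjusted p 0.584 by limma).

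Lef1 had no read in either Wnt3a library. Gsk3b had 7449 and 6380, above the controls by a margin as small as 6380 against 6339 (adjusted p 0.650 by limma). Apc had 5010 and 3389, with a difference of 0.60 (interval -0.027 to 1.22), and Axin1 had 1592 and 1150, with a difference of -0.041 (interval -0.52 to 0.44). Tcf7l1 had 250 and 455, and Tcf7l2 had 457 and 1006, each with its higher value in the set B library, as in the controls.

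Set directly against Wnt3a, MS-275 gave higher Tcf7 and Lef1. Of the 9 members 4 were called, 3 higher and 1 lower, against 42.3% of all genes, and 4 did not overlap, against 54.9% of all genes (30.4% higher and 24.5% lower). Tcf7 was higher by 3.64 ± 0.39 (adjusted p 5.44e-05), and Lef1 by 3.71 ± 0.63 (adjusted p 8.27e-04). The 52 reads of Lef1 against none gave a 6.56-fold higher pooled level when 3 reads over the Wnt3a libraries were taken as the floor. This floor covers the Wnt3a side only, so the value is no lower limit. Tcf7 and Lef1 were called in all 19 alternatives. Axin2 was higher by 3.04 ± 0.99 (adjusted p 0.0287), and 374 reads against 10 gave a ratio of 14.2 (counting interval 7.62 to 29.8). It was not called without Wnt3a 1 (2.88), Wnt3a 2 (3.19) or MS-275 2 (2.87), nor in 4 other alternatives, and it was 1.79 within set A and 4.28 within set B. Axin1 was lower by 0.63 on the log2 scale (-0.63 ± 0.21, adjusted p 0.0321), and was not called without Wnt3a 1 (-0.39), MS-275 2 (-0.62) or MS-275 4 (-0.59), nor in 3 other alternatives. Ctnnb1 did not separate the treatments (0.22, interval -0.33 to 0.77).

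Against E13.5, all 9 members were called in the MS-275 libraries, 2 higher and 7 lower, where 63.3% of all genes were called (27.2% higher and 36.1% lower). For 8 of them the libraries did not overlap, against 69.9% of all genes (30.5% higher and 39.3% lower). This comparison differs in age and in the cell type markers given above as well as in treatment, and their parts were not tested. Apc was lower by 1.79 on the log2 scale (-1.79 ± 0.24, adjusted p 6.18e-05), Lef1 was at -3.49 ± 0.55 (adjusted p 2.32e-04), and both were called in all 19 alternatives. Tcf7 (-1.52 ± 0.35), Tcf7l1 (-1.31 ± 0.36) and Axin1 (-0.80 ± 0.18) were called in 18 of 19, the exception being averaged close libraries. Ctnnb1 (0.56, adjusted p 0.0433) was called in 7 of 19 and lost its call without any 1 of the 7 libraries (0.52 to 0.59, adjusted p 0.0643 to 0.105). Axin2 (-2.30, adjusted p 0.0377) was called in 8 of 19. It was not called by edgeR (-1.43, adjusted p 0.155) or DESeq2 (-1.49, adjusted p 0.126), and was lost without E13.5 1, 2 or 3 or MS-275 1 or 3 (-2.42 to -1.56). Tcf7l2 (-1.18, adjusted p 0.0498) was called in 6 of 19. It was not called by edgeR (-0.93, adjusted p 0.104) or DESeq2 (-1.0, adjusted p 0.0622), and was lost without the same 5 libraries (-1.30 to -0.92). Gsk3b (0.35, adjusted p 0.0291) was called in 11 of 19 and lost without E13.5 1 or 2 or MS-275 2 or 4 (0.25 to 0.37).

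Levels of different genes were compared per kilobase of exon, with the union of the exons of each gene in GENCODE M21 as its length. In the adult controls Ctnnb1 stood first at 10670 ± 3516 normalized counts per kb (SD, n = 3). Gsk3b followed at 595 ± 43.1, Axin1 at 372 ± 93.2 and Apc at 174 ± 52.1. Tcf7l1 (78.8 ± 51.8) and Tcf7l2 (78.6 ± 43.6) did not differ beyond their spread, and the lowest Apc library (137) lay within the Tcf7l1 range (45.1 to 138). Tcf7 was at 4.68 ± 2.06, and Axin2 and Lef1 were last at 0.119 ± 0.207 and 0.0771 ± 0.134, also within their spread. At E13.5 Ctnnb1 was again first (3750 ± 81.0), Apc (679 ± 91.9) and Gsk3b (577 ± 70.6) overlapped, as did Axin1 (399 ± 24.3) and Tcf7 (380 ± 84.1), and Axin2 (54.8 ± 16.0) and Lef1 (17.5 ± 6.69) were again the lowest. With MS-275 (n = 4) the order was Ctnnb1 (5546 ± 370), Gsk3b (731 ± 41.1), Axin1 (229 ± 12.5), Apc (199 ± 44.7), Tcf7 (132 ± 28.1), Tcf7l1 (75.0 ± 14.2), Tcf7l2 (69.0 ± 38.0), Axin2 (19.6 ± 23.6) and Lef1 (1.52 ± 0.716), but few neighbours in it were apart. The libraries of Axin1 overlapped those of Apc, those of Apc overlapped Tcf7, those of Tcf7l2 overlapped Tcf7, Tcf7l1 and Axin2, and those of Axin2 overlapped Lef1.

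The make-up of the TCF/LEF group thus differed between groups of libraries. Tcf7 held 46.2% to 55.6% of the summed TCF/LEF level per kb at E13.5, 2.47% to 4.40% in the adult controls, 5.59% and 6.01% with Wnt3a and 33.8% to 57.9% with MS-275. In the adult controls Tcf7l1 and Tcf7l2 held nearly all of it (42.7% to 50.5% and 47.0% to 52.7%). The sum itself was 614 to 789 per kb at E13.5, 106 to 274 in the adult controls, 123 to 244 with Wnt3a and 228 to 339 with MS-275. Lef1 reached at most 3.99% at E13.5 and 0.678% with MS-275. Of the 2 Axin scaffolds, Axin1 held 99.9% to 100% per kb in the adult controls, 99.6% and 99.8% with Wnt3a, 84.3% to 90.4% at E13.5 and 79.7% to 99.1% with MS-275.

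**Figure D4:**
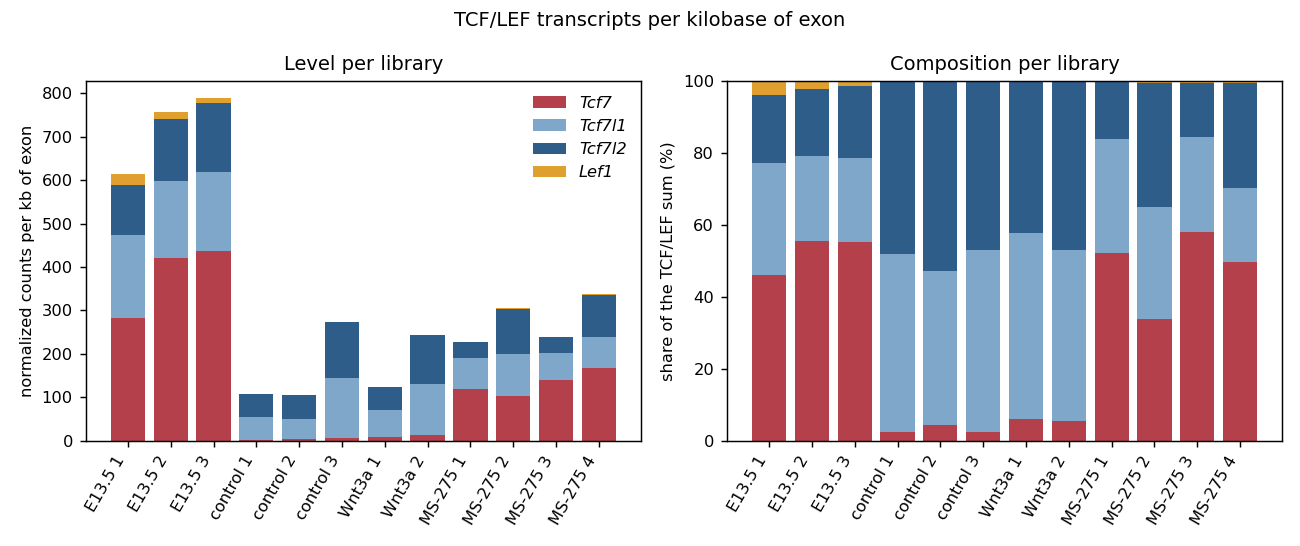
Stacked normalized counts per kb of exon of Tcf7, Tcf7l1, Tcf7l2 and Lef1 in each of the 12 libraries (left) and the same as a share of their sum in percent (right). Tcf7 makes up 2.47% to 6.01% in the adult control and Wnt3a libraries and at least 33.8% in every E13.5 and MS-275 library.

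Across the 12 libraries, which share groups of very different level, Lef1 was most like Ngfr (Pearson r 0.986 of log2 values), Stmn2 (0.986) and Cacng7 (0.985). Tcf7 was most like Lgr4 (0.986), a receptor for R-spondins, and Ccdc80 and Col6a1 (both 0.985). Axin2 was most like Dclk1 (0.973), Sh3yl1 (0.969) and Itsn1 (0.964). Stmn2 is also among the neuron markers, with means of 2006 at E13.5, 0.678 in the adult controls, 0 with Wnt3a and 97.5 with MS-275.

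Other genes of the pathway were counted in 4 lists, to be read against all genes tested, of which 19.5% were called higher and 32.8% lower in the adult control than at E13.5, and 30.3% higher and 22.7% lower with MS-275. Of 25 further subunits and regulators of the destruction complex, 3 were higher and 10 lower in the adult control than at E13.5, a share near that of all genes. The clearest were Apc2, the neuronal relative of Apc (8.43 ± 2.47 against 1525 ± 110), Amer2 (no read in the adult controls against 481 ± 225), Dvl3, a dishevelled protein that relays the receptor signal (732 ± 85.1 against 3625 ± 565), and Frat2, which binds GSK3 (18.7 ± 5.32 against 142 ± 22.8). With MS-275 9 were higher and 3 lower. Apc2 rose to 71.5 ± 2.67 and Amer1, an APC-binding membrane protein, from 313 ± 28.3 to 668 ± 93.7, whereas Csnk1d, a casein kinase 1, fell from 5835 ± 1400 to 2521 ± 738. The median log2 difference was -0.38 and 0.13 in these comparisons, where all genes had -0.20 and 0.19.

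Of 24 nuclear partners tested, 2 were higher and 7 lower in the adult control than at E13.5, and 7 were higher and 9 lower with MS-275. The share lower in the adult control was near that of all genes. Ctbp1, a co-repressor (1491 ± 353 against 5898 ± 648), Tle3, a Groucho co-repressor (583 ± 248 against 2893 ± 621), Crebbp, a histone acetyltransferase (1225 ± 61.3 against 2949 ± 220), and Bcl9l, which tethers Pygopus to β-catenin (261 ± 98.4 against 970 ± 70.8), fell with MS-275. Pygo1 (7.27 ± 9.30 in the adult control, 601 ± 69.0 at E13.5) was among those lower in the adult, and Sox7 (1169 ± 165 against 325 ± 33.5) among those higher. The median differences were -0.40 and -0.34, where all genes had -0.20 and 0.19.

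Of 10 catenins and cadherins of the adherens junction, 5 were higher and 5 lower in the adult control than at E13.5. Cdh5, VE-cadherin and an EC marker, was at 82471 ± 7459 in the adult controls, 74.8 ± 28.8 at E13.5 and 5389 ± 3737 with MS-275. Cdh2, N-cadherin, was at 1331 ± 194 in the adult controls and 20755 ± 549 at E13.5. With MS-275 3 were higher and 3 lower. The α- and p120-catenins Ctnna1 (27512 ± 10566 to 11754 ± 982) and Ctnnd1 (11323 ± 368 to 6223 ± 1424) fell, as did Ctnnb1. The catenin Ctnnd2 was among those that went the other way. It had no read in the adult controls, 118 ± 121 with MS-275 and 3093 ± 711 at E13.5. Ctnnal1 of the same list was at 209 ± 30.5 in the adult controls and 421.5 ± 130 with MS-275.

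Of 23 other feedback and target genes tested (27 listed), 0 were higher and 15 lower in the adult control than at E13.5, by limma at the same threshold, and 10 were higher and 3 lower with MS-275. Nkd1, Foxq1 and Msx2 had no read in the adult controls and 219 ± 38.5, 140 ± 48.6 and 238 ± 168 at E13.5. With MS-275 they remained at means of 0.426, 0.426 and 0.546. Wif1 (79.2 ± 20.8), a secreted Wnt inhibitor, and Rnf43 (38.0 ± 23.8), a ligase that removes Wnt receptors, had no read in the controls and rose with MS-275, as did Dact1 (1.83 ± 1.74 to 123 ± 45.7) and Ephb2 (5.29 ± 3.00 to 441 ± 218). The median differences were -3.07 and 1.07. Ccnd1, a widely used target gene, was at 6013 ± 4334 with MS-275 and 72858 ± 31395 with Wnt3a (difference -3.86, adjusted p 3.69e-04). None of the genes of the 4 lists, Ccnd1 included, was called with Wnt3a against the adult control by limma.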

How the data were processed

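Per the methods and the submitters' processing notes, the authors used FastQC for read quality, cutadapt for trimming, STAR for alignment (mm10), and counted reads on protein-coding genes of GENCODE (by in-house scripts in the methods, featureCounts in the notes). Versions were not stated. The deposited signal values are normalized counts, which the authors made by dividing reads by DESeq2 size factors. Reads were recovered by dividing each library by its smallest positive value, taken as 1 read. On that assumption 100% of values were whole reads within 0.01, and the read counts given here rest on it. Left out were 26 date-named rows (0.21% to 0.281% of reads) and 1 row with a missing value.

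Tests used limma 3.58.1 in R 4.3.3 on log2(value + 1), with trended and robust variances and 1 fit of all 12 libraries. A gene was kept where 2 or more libraries reached 10. Adjustment was by Benjamini-Hochberg, and the threshold 0.05. Each p-value measures the spread between libraries. Alternatives were edgeR 4.0.16, DESeq2 1.42.0, other scalings, pseudocounts (0.5 and 8) and filters, a replicate block, close libraries averaged, and 1 library left out at a time. Named were the 9 members, up to 4 genes per pathway list and comparison with the smallest adjusted p among those called, and the 3 genes of highest correlation among those with a mean of at least 100. Members and lists were chosen with earlier results of these data known. Counting intervals are exact (95%) and cover counting error only. Intervals beside differences are 95% confidence intervals from limma. Positions and exon lengths came from GENCODE M21, a release other than the one the authors named.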

Additional observations from a re-analysis of the deposited data

How the results depend on the processing

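The 9 genes were recomputed under the alternatives and under 1 added after seeing the data (library set as a block). For single genes 741 values kept their direction and side of the threshold, 65 lost a call, 9 gained one and 31 changed sign, none of these being called. Averaging close libraries, which leaves fewer samples, gave 4911, 4011, 3478 and 6197 called genes for adult control against E13.5, MS-275 against adult control, MS-275 against Wnt3a and MS-275 against E13.5, where 8074, 8192, 6541 and 9775 were called, and 3, 2 and 2 called members in the last 3. Quantile normalization gave 7 genes with Wnt3a, 2 members for MS-275 against Wnt3a and 5 members for MS-275 against E13.5, where 55.6% of calls over all genes were higher, against 43.0%. edgeR, on whole reads recovered from the values, called 7955, 0, 7928, 6108 and 9584 genes in adult control against E13.5, Wnt3a and MS-275 against adult control, and MS-275 against Wnt3a and E13.5. DESeq2 called 41 genes and 1 member with Wnt3a. Replicate numbers did not pair libraries (correlations of deviations from -0.44 to 0.44); the replicate block left 2 members called for MS-275 against Wnt3a. The cause of these changes was not tested.

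Without 1 library at a time, the count with Wnt3a was 0 to 1454 genes and 0 to 1 members, 2 to 4 members for MS-275 against Wnt3a, and 5 to 7 for MS-275 against E13.5. Uncalled differences that changed sign over these were, adult control against E13.5, Axin1 (-0.27 to 0.092) and Gsk3b (-0.049 to 0.13). For Wnt3a against adult control they were Tcf7l1 (-0.12 to 0.81), Tcf7l2 (-0.46 to 0.68) and Axin1 (-0.28 to 0.19). For MS-275 against adult control they were Tcf7l1 (-0.21 to 0.60) and Tcf7l2 (-0.50 to 0.18). For MS-275 against Wnt3a they were Ctnnb1 (-0.049 to 0.50), Tcf7l1 (-0.64 to 0.22), Tcf7l2 (-0.92 to 0.22) and Gsk3b (-0.053 to 0.17). Other sign changes were Gsk3b (-0.083 with equal totals, -0.12 with quantile normalization) and Axin1 (0.040 with edgeR) in adult control against E13.5. With Wnt3a they were Tcf7l2 (-0.10 with close libraries averaged, -0.11 with the set block) and Axin1 (0.072 and 0.021). With MS-275 against adult control, Tcf7l1 was -0.13 with edgeR, -0.070 with DESeq2, -0.14 with close libraries averaged and -0.031 with the set block. Depth limits Lef1 and Axin2, each with 2 reads in all adult controls.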
